A study of Mus musculus with 4 samples.

Results

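Pooled gingival leukocytes, 124 cell barcodes of 8295 deposited, were examined across 4 single-cell RNA-seq libraries of mouse maxillary gingiva. The libraries were a healthy sample, a metformin-treated sample, a disease sample and a disease sample treated with metformin, with 1 library in each group. The series' title places the work in the prevention of periodontal disease by metformin, a drug used to lower blood glucose. How disease was produced, how much metformin was given and for how long, and the strain, age and number of the mice are not given in the sources used here. Excised gingiva was digested with collagenase type II and DNase and strained before droplet capture, so the share of any cell type also depends on how well it survived digestion.

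A barcode was kept with at least 200 detected genes and at most 20% mitochondrial UMIs (unique molecular identifiers, the count of captured RNA molecules), which left 7134. Of these, a barcode was taken as a leukocyte when it held RNA of at least 3 of the 8 genes Ptprc, Laptm5, Coro1a, Cd52, Tyrobp, Fcer1g, Cd3e and Cd79a and of fewer than 3 of 10 endothelial genes. The endothelial limit removed 0 barcodes. The cells were thus chosen by the detection of these 8 genes, whose values are given only as a description. Ptprc, which encodes the pan-leukocyte phosphatase CD45, had a UMI in 90.5% of the leukocytes of the healthy library, 83.3% with metformin, 91.7% in disease and 88.0% in disease plus metformin. At the threshold, 18 leukocytes held exactly 3 of the 8 genes, and 16 kept barcodes held exactly 2 and were not included.

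Healthy gums hold a steady traffic of white blood cells. Neutrophils pass through the junctional epithelium towards the tooth surface, carrying preformed granule proteins and releasing inflammatory mediators once activated. Macrophages clear debris, Langerhans cells sample antigen within the epithelium, and T cells of the gamma delta type can make IL-17, a cytokine that recruits neutrophils and is linked to bone loss in periodontitis. B cells, macrophages and dendritic cells display peptides on MHC class II molecules, which are made of an alpha chain and a beta chain assembled on the invariant chain encoded by Cd74.

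Each library held between 12507787 and 22333858 UMIs, and the leukocytes contributed 1132421 in all. The median leukocyte held 3965 UMIs in the healthy library, 6975.5 with metformin, 3466.5 in disease and 3550 in disease plus metformin, against 1811.5, 1812, 1920 and 1702 for the other kept barcodes. A single barcode held 46.6% of all leukocyte UMIs in the healthy library, 44.4% with metformin, 17.1% in disease and 30.2% in disease plus metformin. Libraries shared 8 barcode sequences, and none of these was a leukocyte. No doublet caller was run here.

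RNA of epithelial cells was present in the leukocyte barcodes. Detection of at least 3 of 15 salivary gland markers was seen in 11 of 21, 13 of 30, 8 of 48 and 19 of 25 leukocytes of the healthy, metformin, disease and disease plus metformin libraries, in that order throughout. At least 3 of 15 keratinocyte markers were found in 1, 9, 6 and 0. The summed gland markers took a median of 0.103%, 0.0626%, 0.0653% and 0.139% of a leukocyte's UMIs. In 6 barcodes (1, 2, 3 and 0) the keratinocyte markers outnumbered the 8 leukocyte genes. They included the deepest barcode of the healthy library, with 99107 UMIs and 1124 of the keratin gene Krt13, and that of the metformin library, with 172098 UMIs and 1721 of Krt14. The largest disease barcode, with 62765 UMIs, carried 6177 of the secretory gene Wfdc18. Whether such barcodes hold more than 1 cell was not tested. Values without these 6 keratin-rich barcodes, left out after the data were seen, are given where they change a result. Haemoglobin and other erythroid markers gave at least 1 UMI in 7, 19, 28 and 6 leukocytes.

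The most selective RNAs of the leukocytes, as a description without the keratin-rich barcodes, were those of myeloid and antigen-presenting cells. Ranked by the median ratio to the other kept barcodes, they included the neutrophil granule genes Ngp and Camp, the cytokine gene Il1b, the neutrophil-recruiting chemokine gene Cxcl2, the surface glycoprotein gene Cd52, Cd74 and the complement gene C1qa. Il1b stood at 1911, 5457, 2551 and 1307 CPM (counts per 1000000 of the summed leukocyte UMIs) and at 0, 0, 0.162 and 0.253 CPM in the other kept barcodes. Cd74 stood at 6051, 12322, 14915 and 9981 CPM against 1.31, 2.93, 6.31 and 1.44.

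Leukocytes were 21 of 1307 kept barcodes in the healthy library (1.61%, Clopper-Pearson 95% interval 0.997 to 2.45), 30 of 2477 with metformin (1.21%, 0.819 to 1.72), 48 of 1693 in disease (2.84%, 2.10 to 3.74) and 25 of 1657 in disease plus metformin (1.51%, 0.979 to 2.22). The disease library held the highest share. The log2 ratio of disease to healthy was 0.82 (0.05 to 1.63), that of disease plus metformin to disease was −0.91 (−1.67 to −0.18), and that of metformin to healthy was −0.41 (−1.26 to 0.47). With 1 library a group no test across samples was possible, and all intervals here cover counting error only, not the spread between animals.

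These share differences depended on the epithelial barcodes in the denominator. Among kept barcodes that were leukocytes or fell under neither epithelial marker rule, leukocytes were 21 of 46 (45.7%), 30 of 135 (22.2%), 48 of 229 (21.0%) and 25 of 53 (47.2%), so that disease then held the lowest share. The log2 ratio was then −1.12 (−1.89 to −0.31) for disease to healthy and 1.17 (0.41 to 1.90) for disease plus metformin to disease. After thinning every barcode to 1000 UMIs and leaving out shallower ones, leukocytes were 12 of 871 (1.38%), 21 of 1689 (1.24%), 39 of 1198 (3.26%) and 13 of 1119 (1.16%). The recovery of epithelium and that of leukocytes cannot be told apart in a share.

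**Figure D1:**
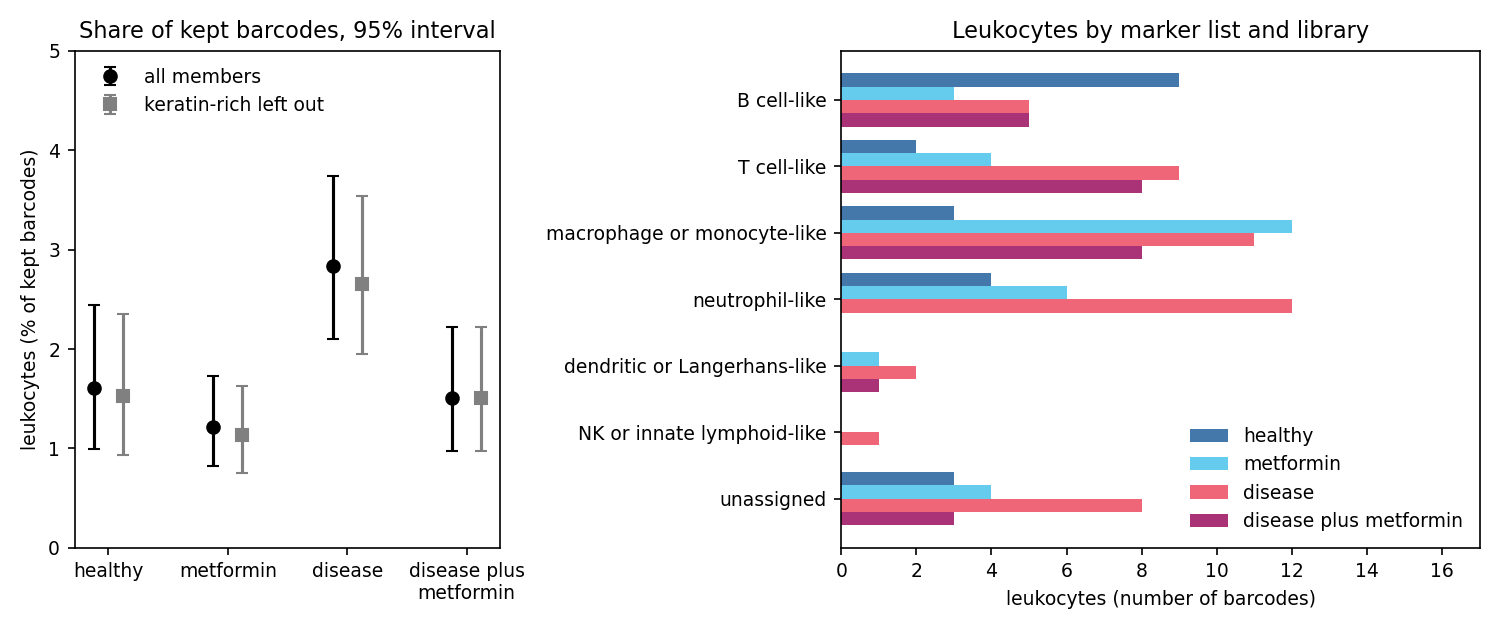
Left, leukocytes as a percentage of kept barcodes in each library with 95% Clopper-Pearson intervals, for all 124 leukocytes (black circles) and without the 6 keratin-rich barcodes (grey squares). Right, the number of leukocyte barcodes in each marker-defined class and library. Disease stands highest at 2.84% of kept barcodes, and the neutrophil-like class has no bar for disease plus metformin.

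Each leukocyte was placed with the lineage whose marker list had the most detected genes, provided at least 3 markers were detected and the lead over the next list was at least 2. The pooled leukocytes were a mixture. B cell-like barcodes numbered 9, 3, 5 and 5, T cell-like barcodes 2, 4, 9 and 8, macrophage or monocyte-like barcodes 3, 12, 11 and 8, and neutrophil-like barcodes 4, 6, 12 and 0. Dendritic or Langerhans-like barcodes numbered 0, 1, 2 and 1, and 1 disease barcode was NK or innate lymphoid-like. The remaining 3, 4, 8 and 3 were unassigned, and this rule placed no barcode as plasma cell, mast cell or eosinophil-like. The lead was 3 markers or more in 98 of the 124.

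B cell-like barcodes made up the largest class of the healthy library, at 42.9% of its leukocytes, against 10.0%, 10.4% and 20.0% in the other libraries. Macrophage or monocyte-like barcodes led with metformin, at 40.0%. Per kept barcode, the log2 ratio of metformin to healthy was −2.51 (−5.03 to −0.51) for B cell-like and 1.08 (−0.81 to 3.54) for macrophage or monocyte-like barcodes. For disease to healthy it was 1.21 (−0.51 to 3.30) for neutrophil-like, 1.5 (−0.42 to 3.98) for macrophage or monocyte-like, 1.80 (−0.48 to 5.05) for T cell-like and −1.22 (−3.15 to 0.51) for B cell-like barcodes, so every one of these intervals included 0. The macrophage or monocyte-like, T cell-like and B cell-like shares of disease plus metformin and disease differed by −0.43, −0.14 and 0.03 on the log2 scale, with intervals of −1.95 to 1.02, −1.71 to 1.41 and −2.09 to 2.15.

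Single lineage genes gave a similar picture, but this is no separate support. Lyz2, Csf3r, Cd3e and Cd79a also belong to the marker lists. Cd3e and Cd79a are among the 8 genes that chose the leukocytes, so their values are a description only. Lyz2, the lysozyme of myeloid cells, had a UMI in 38.1%, 53.3%, 47.9% and 36.0% of leukocytes. Csf3r, the granulocyte colony-stimulating factor receptor, had one in 14.3%, 33.3%, 20.8% and 4.00%. Cd3e, a chain of the T cell receptor complex, had one in 4.76%, 13.3%, 16.7% and 24.0%. Cd79a, a signalling chain of the B cell receptor, had one in 42.9%, 10.0%, 10.4% and 20.0%. H2-Eb1, the beta chain of the class II molecule H2-E, had one in 33.3%, 43.3%, 45.8% and 36.0%. Cd3e, found in 19 leukocytes, never shared a barcode with any of the other 4 genes.

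The level in other barcodes is set beside these shares. Keratinocyte-rule barcodes held medians of 1508, 1779, 1648 and 1696 UMIs. In them Lyz2 was found in 1.24%, 1.06%, 0.634% and 1.29%, H2-Eb1 in 0.414%, 1.48%, 1.11% and 0.258%, and Cd3e in 0%. All the leukocyte shares above lay higher than this level. The keratinocyte-rule barcodes had failed the leukocyte rule and were shallower, so selection and depth both enter this contrast. Whether their reads of these genes came from free RNA was not tested. The leukocytes held 44.3%, 80.2%, 81.5% and 29.9% of the Lyz2 UMIs of all kept barcodes. After thinning to 1000 UMIs, Csf3r was left in 2 of 20, 5 of 27, 6 of 47 and 0 of 22 leukocytes, and Cd79a in 6 of 20, 2 of 27, 4 of 47 and 3 of 22.

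Neutrophil-like barcodes came in 2 kinds, split by Ngp, which encodes a granule protein made during maturation in bone marrow. The Ngp-positive kind comprised 5 barcodes, 2 healthy, 1 metformin and 2 disease, with 6969 to 15959 UMIs. Each held 426 to 667 UMIs of Ngp, 465 to 694 of the cathelicidin gene Camp, 32 to 119 of the lactoferrin gene Ltf and 1568 to 2769 of S100a9, a subunit of the antimicrobial protein calprotectin. Il1b was at 0 in 4 of them and at 4 UMIs in the metformin barcode, and Csf3r did not exceed 1 UMI.

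The Ngp-negative kind comprised 17 barcodes, 2 healthy, 5 metformin and 10 disease, with 1149 to 4016 UMIs. All 17 held Il1b, at 22 to 248 UMIs, and S100a9, at 14 to 425. Camp was at 0 in all of them. Per 10000 UMIs, their Il1b level had a median of 183 in the healthy library, 479 with metformin and 290 in disease, and their Cxcl2 level had medians of 48.0, 688 and 199. Cd74, the marker of antigen-presenting leukocytes, was at 0 in all 22 neutrophil-like barcodes. Apart from Ngp, which defined them, the 2 kinds did not overlap in Camp UMIs, Il1b UMIs or depth.

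**Figure D2:**
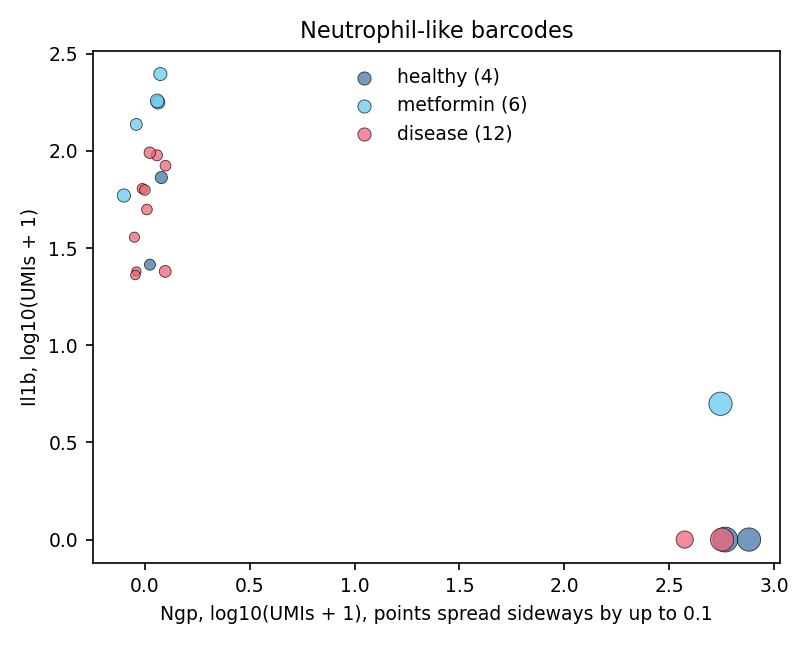
Each point is 1 of the 22 neutrophil-like barcodes, by Ngp (horizontal) and Il1b (vertical) UMIs as log10(UMIs + 1), coloured by library and with area proportional to total UMIs; points are spread sideways by up to 0.1 so that those at 0 can be seen. The 5 Ngp-positive barcodes lie at the lower right and the 17 Ngp-negative ones at the upper left, with no barcode between them.

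No neutrophil-like barcode was found in disease plus metformin, although a looser rule of at least 2 markers and a lead of 1 gave 1 of 25. With the count of 0 of 1657 kept barcodes set to a floor of 3, the share was 0.181%, against 12 of 1693 (0.709%) in disease. The share was 3.91-fold lower at this floor, which takes the 12 disease barcodes as exact and so is not a lower limit. Among the 25 leukocytes of that library, the upper Clopper-Pearson limit for 0 was 13.7%. The summed RNA of S100a8, Ngp, Camp and S100a9 went the same way. These genes are in the marker list that defined the class, so their sums largely restate its absence and are no separate support. S100a8 had 0 UMIs against 4080 in disease, 608-fold lower in CPM with the floor of 3 counts. Ngp had 0 against 1085 and Camp 0 against 1221, 162-fold and 182-fold lower at that floor. S100a9 had 1 UMI against 5648, a log2 ratio of −11.30 (−16.61 to −8.82). Only 2 disease barcodes supplied all of the Ngp and Camp, whereas 12 supplied S100a8 and S100a9. This library also had the highest count of leukocytes with gland RNA, 19 of 25, and the part of library composition in the missing neutrophils was not tested.

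In the macrophage or monocyte-like barcodes the complement gene C1qa, typical of tissue macrophages, marked a part of each library. Without the keratin-rich barcodes it had UMIs in 3 of 3 healthy, 5 of 11 metformin, 7 of 9 disease and 4 of 8 disease plus metformin barcodes. Ccr2, the chemokine receptor that brings monocytes from blood, was found in 0 of 3, 8 of 11, 3 of 9 and 2 of 8. Mrc1, a mannose receptor of resident macrophages, was found in 2 of 3, 2 of 11, 4 of 9 and 2 of 8. The metformin barcodes thus had the highest fraction with Ccr2, and the healthy ones had none, with only 3 to look in. C1qa, Ccr2 and Mrc1 are in the marker list that placed these barcodes, so the fractions are a description only.

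RNA of the interferon-inducible genes Ifi27l2a and Ifitm3 was present in all macrophage or monocyte-like barcodes of disease plus metformin. Ifi27l2a was found in 1 of 3, 9 of 11, 6 of 9 and 8 of 8, at medians of 0, 10.4, 2.24 and 29.7 per 10000 UMIs. Ifitm3, which blocks viral entry, was found in 1 of 3, 8 of 11, 4 of 9 and 8 of 8, at medians of 0, 14.5, 0 and 33.1. Il1b was found in 1 of 3, 7 of 11, 2 of 9 and 6 of 8, and the lysosomal protease gene Ctsd in 2 of 3, 7 of 11, 8 of 9 and 3 of 8. The disease barcodes were thus most often positive for Ctsd and seldom for Il1b. The deepest single carriers shaped several macrophage genes. Spp1, the osteopontin gene, reached 118 and 55 UMIs in 2 disease barcodes, and Retnla, a marker of alternative activation, reached 168 UMIs in 1 disease plus metformin barcode and 65 in 1 metformin barcode.

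MHC class II RNA was compared as a ratio within single barcodes, so that the ratio is not set by the depth of the barcode. B cell-like barcodes were kept apart, but all other classes were pooled. The mix of these classes thus still enters the ranges and pooled values below, and its part was not tested. The promoters of the alpha chain gene H2-Aa and the beta chain gene H2-Eb1 are shown since they carry the shared class II elements, while the 2 RNAs behaved differently below. The 250 bases before each transcription start come from RefSeq (mouse GRCm38.p6). H2-Aa is at chr17:34287824-34288073, minus strand, and H2-Eb1 at chr17:34305617-34305866, plus strand. Capitals mark GCAACT, part of the X box, and CTGATTGG, the Y box with its CCAAT motif on the other strand.
H2-Aa: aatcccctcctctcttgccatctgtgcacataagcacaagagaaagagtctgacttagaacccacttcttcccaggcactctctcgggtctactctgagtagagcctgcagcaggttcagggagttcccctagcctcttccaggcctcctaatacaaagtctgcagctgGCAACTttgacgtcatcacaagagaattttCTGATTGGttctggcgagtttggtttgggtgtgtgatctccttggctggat
H2-Eb1: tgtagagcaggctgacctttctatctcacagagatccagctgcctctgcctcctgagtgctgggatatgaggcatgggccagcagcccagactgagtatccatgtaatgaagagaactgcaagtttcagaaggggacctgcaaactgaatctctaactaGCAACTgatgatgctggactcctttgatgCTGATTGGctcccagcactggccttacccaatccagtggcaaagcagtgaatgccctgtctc

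The elements lie 81 and 51 bases before the start of H2-Aa, with 24 bases between them, and 91 and 62 bases before the start of H2-Eb1, with 23 between. Searched on both strands of 32851 promoter windows of this length, CTGATTGG was present in 3.83%, GCAACT in 9.01%, and both with 10 to 30 bases between them in 5 windows (0.0152%). Of 13 listed class II genes, 10 had a window, and the pair was found in 3, the other being H2-Eb2. A match describes letters and does not show that a factor binds there.

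H2-Eb1 RNA was low relative to Cd74 in the disease plus metformin leukocytes other than B cells. Among barcodes with at least 30 Cd74 UMIs, a minimum chosen after the data were seen, and without the keratin-rich ones, that library had 5 such barcodes, at 0 to 2.90 H2-Eb1 UMIs per 100 of Cd74, pooled 0.782. The 14 disease barcodes ranged from 3.08 to 41.3, pooled 23.8. The 2 ranges all but met, since the nearest barcodes each held 2 H2-Eb1 UMIs, for 69 of Cd74 in disease plus metformin and 65 in disease. The 10 metformin barcodes ranged from 0 to 36.6, pooled 25.2, and overlapped with disease plus metformin. The only healthy barcode held 0 H2-Eb1 for 129 of Cd74. H2-Aa stayed at 28.2 per 100 of Cd74 in disease plus metformin and 34.5 in disease, and H2-Ab1 at 28.3 and 27.2. Whether strain alleles or the reference annotation affect the counting of H2-Eb1 reads was not tested.

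The B cells of the same library had higher H2-Eb1 than its other leukocytes. The 5 disease plus metformin B cell-like barcodes held 11.3 to 23.9 H2-Eb1 UMIs per 100 of Cd74, pooled 15.0, against pooled values of 11.4, 28.3 and 12.5 in the healthy, metformin and disease libraries. A pair of Langerhans-type barcodes shows the difference directly. The disease barcode held 510 UMIs of Cd74, 43 of Cd207, the langerin gene of Langerhans cells, and 139 of H2-Eb1. The disease plus metformin barcode held 580 of Cd74, 36 of Cd207 and 4 of H2-Eb1. All barcodes of a group came from 1 library, so a difference between animals and a difference between treatments cannot be told apart.

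**Figure D3:**
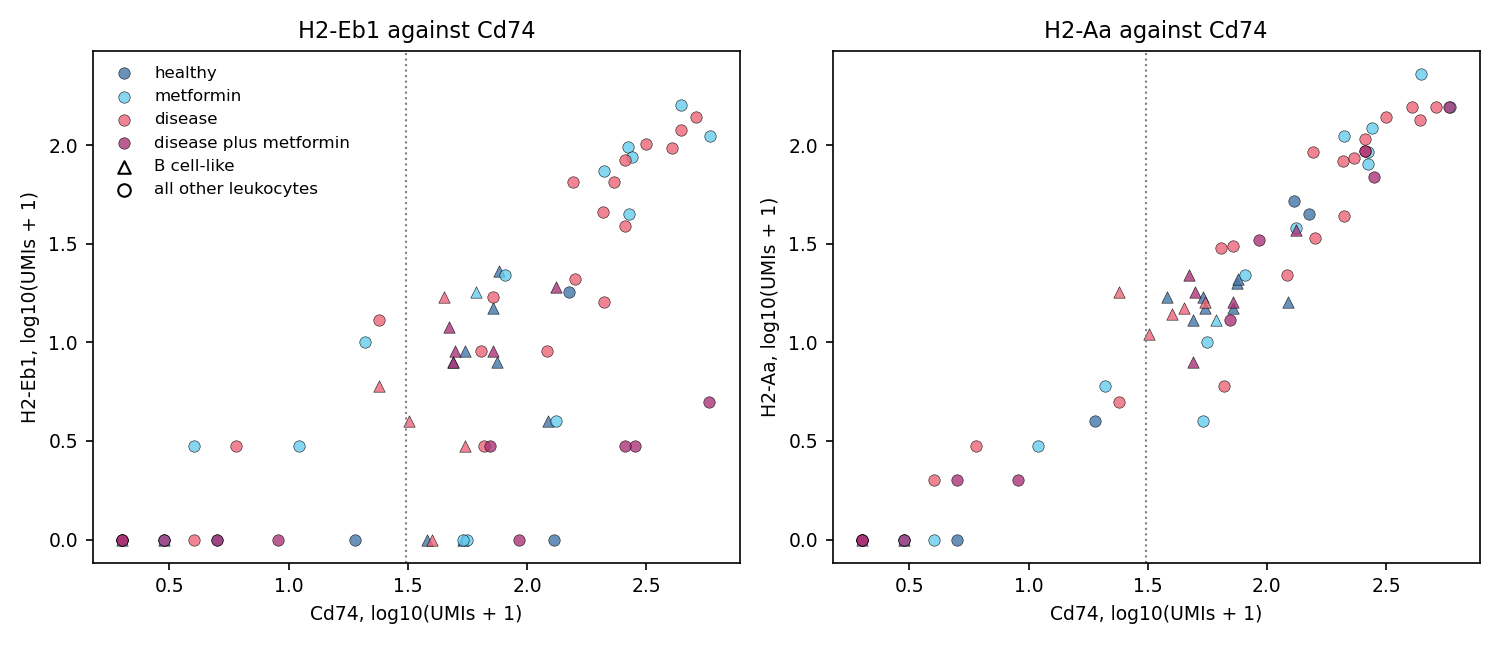
Leukocyte barcodes with at least 1 Cd74 UMI, by Cd74 (horizontal) and H2-Eb1 (left) or H2-Aa (right), all as log10(UMIs + 1), with B cell-like barcodes as triangles, all other leukocytes as circles and a dotted line at 30 Cd74 UMIs. To the right of the line the disease plus metformin circles lie low for H2-Eb1, at 0 to 2.90 per 100 of Cd74, and among the others for H2-Aa.

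B cell-like barcodes were not uniform. EBF1 is the factor that sets up the B cell programme. Its gene Ebf1 had UMIs in all 22 B cell-like barcodes, but is in the marker list that placed them, so this is a description only. The promoter of Cd79a, also in that list, is shown because it holds a match to the EBF1 element. It lies at chr7:24897247-24897496 of GRCm38.p6, plus strand, and the capitals mark CAAGGGAAT, found 174 bases before the start and in 0.225% of the promoter windows on either strand.
Cd79a: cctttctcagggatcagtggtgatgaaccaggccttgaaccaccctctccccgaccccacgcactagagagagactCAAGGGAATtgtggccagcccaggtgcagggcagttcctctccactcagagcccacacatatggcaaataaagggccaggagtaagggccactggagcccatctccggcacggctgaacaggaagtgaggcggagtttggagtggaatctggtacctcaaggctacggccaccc

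A single healthy B cell-like barcode of 11441 UMIs held RNA of early B cell development. It carried 126 UMIs of Ebf1, 18 of Dntt, the nucleotide-adding enzyme of antigen receptor assembly, 8 of Vpreb1 and 5 of Igll1, which encode the surrogate light chain, and only 2 of Cd74. A metformin barcode held 5 UMIs of Vpreb3 with 15 of Ighm and none of Cd74. The deepest leukocyte of disease plus metformin, with 49673 UMIs, was B cell-like and held 67 UMIs of the proliferation gene Mki67, 63 of Top2a and 20 of Jchain, with 24 of Cd79a and none of Ighm. The other B cell-like barcodes held mostly Ms4a1, which encodes CD20, and the immunoglobulin genes Ighm and Ighd. Ms4a1 was found in 8 of 9 healthy, 1 of 3 metformin, 5 of 5 disease and 3 of 5 disease plus metformin barcodes. Ms4a1, Ighm and Ighd are in the B cell marker list, so their detection here is a description only.

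T cell-like barcodes were few and included candidates for the gamma delta type. Il17a was found in 2 leukocytes of all 124, at 13 UMIs in a metformin T cell-like barcode with 20 UMIs of Trdc, the constant part of the receptor delta chain, and at 23 UMIs in a disease plus metformin T cell-like barcode with 7 of Trdc. In disease, 4 T cell-like barcodes held Trdc, at 10, 7, 4 and 3 UMIs, the last of them keratin-rich, and Il17a was at 0 in all. Trac, the alpha chain constant gene, was found in 0 of 2 healthy, 1 of 3 metformin, 4 of 8 disease and 7 of 8 disease plus metformin barcodes without the keratin-rich ones. Il7r, a survival receptor of resting T cells, was found in 1 of 2, 1 of 3, 7 of 8 and 4 of 8. Cd4 was found in 2 T cell-like barcodes and Cd8a in 2, each at no more than 2 UMIs. Trdc, Trac, Il7r, Cd4 and Cd8a are in the T cell marker list, so their detection here is a description only.

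Summed over all leukocytes of a library, gene levels combine the mix of lineages above with the level per cell, and the 2 cannot be told apart in a sum. A gene was compared with at least 20 UMIs over both sums and counted past 2-fold in CPM. Comparing disease with healthy, 594 of 4236 genes (14.0%) were past 2-fold higher and 407 (9.61%) lower. For disease plus metformin against disease, 713 of 4114 (17.3%) were higher and 466 (11.3%) lower. For metformin against healthy, 480 of 4147 (11.6%) were higher and 443 (10.7%) lower. The first pair of comparisons shares the disease library, and the comparisons with healthy share that library. The median log2 ratio of all genes was 0.03, 0.16 and 0.00.

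In disease against healthy leukocytes, genes of class II presentation, chemokine receptors and lysosomes stood higher, and cell cycle genes and single B cell genes stood lower. Of 9 class II presentation genes, 6 were past 2-fold higher and 1 lower, with a median log2 ratio of 1.40. H2-Eb1 was at 2332 CPM in disease and 367 in healthy leukocytes (log2 ratio 2.67, 2.33 to 3.02), with UMIs in 22 of 48 and 7 of 21 cells, and H2-Ab1 at 2764 and 767 (1.85, 1.61 to 2.10). Of 8 chemokine receptors, 6 were higher and none lower, or 4 of 7 without the keratin-rich barcodes. Ccr2 was at 147 against 23.5 CPM (2.64, 1.33 to 4.32) and the atypical receptor gene Ccrl2 at 446 against 98.8 (2.17, 1.51 to 2.90). Of 10 chemokines, 7 were higher and 1 lower, with Cxcl2 at 3621 against 1058 CPM (1.77, 1.57 to 1.99). Of 16 lysosome genes, 9 were higher and none lower, including the protease gene Ctsc (2.02, 1.30 to 2.82).

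Of 16 cytoskeleton and motility genes, 1 was past 2-fold higher in disease and none lower. Among the single genes, Vim, the intermediate filament of most leukocytes, was at 3458 against 687 CPM (2.33, 2.08 to 2.59), and S100a4, a calcium-binding protein of motile cells, at 1416 against 226 (2.65, 2.22 to 3.11). Entpd1, which encodes the ATP-degrading enzyme CD39, was found in 20 disease and 2 healthy cells. Adam8, a surface protease of myeloid cells, was found in 18 and 0, 5.97-fold higher with the floor of 3 counts. Of 16 NF-kB target and feedback genes, 6 were higher and none lower, with the inhibitor gene Nfkbia at 1112 against 541 CPM (1.04, 0.74 to 1.35). Il1b was at 1685 against 1020 CPM (0.72, 0.50 to 0.95).

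Lower in disease were the B cell receptor chain gene Cd79b, at 38.1 against 249 CPM (−2.71, −3.68 to −1.84), together with Ms4a1 (−2.56, −3.63 to −1.61) and the B cell transcription factor gene Bcl11a (−2.47, −3.66 to −1.41). B cell-like barcodes were 5 of 48 disease and 9 of 21 healthy leukocytes, and their part in these ratios was not tested. Of 13 cell cycle genes, 12 were lower and none higher, with a median of −1.87, and 6 of 9 without the keratin-rich barcodes. Stmn1, a microtubule regulator of dividing cells, was at 35.3 against 263 CPM (−2.90, −3.89 to −2.01). Of 10 neutrophil granule genes, 2 were higher and 3 lower, or 1 higher and 6 lower without the keratin-rich barcodes. Ltf changed side with the keratin-rich barcodes, from 1.83 with them to −0.92 without, since a disease barcode rich in gland RNA held 646 of its 937 UMIs.

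In disease plus metformin against disease, the neutrophil granule list had the lowest median of the 24 lists. All 8 of its genes compared were lower, with a median log2 ratio of −7.23. Genes that the disease neutrophil-like barcodes carried were also lower. Il1rn, the interleukin-1 receptor antagonist, had 1 UMI against 119 (−5.73, −11.05 to −3.23). Hcar2, a receptor for butyrate and ketone bodies, had 2 against 99 (−4.47, −7.53 to −2.58), and Ccrl2 7 against 164 (−3.39, −4.73 to −2.31). Hcar2 is in the marker list that defined the neutrophil-like class, so its ratio largely restates the absence of that class. The histamine-forming enzyme gene Hdc had 0 against 46, 6.86-fold lower with the floor of 3 counts. Il1b and Cxcl2, which macrophages also express, were at −0.37 (−0.60 to −0.14) and −0.28 (−0.43 to −0.13), and at −0.96 and −0.84 without the keratin-rich barcodes. The chemokine gene Ccl2, which attracts monocytes, was higher (3.54, 2.91 to 4.22), in 5 of 25 and 3 of 48 cells, with 55.5% of its UMIs in 1 barcode.

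Of 10 class II presentation genes, 1 was higher and 2 were lower, or none higher and 2 lower without the keratin-rich barcodes. H2-Eb1 was at 377 against 2332 CPM (−2.63, −3.03 to −2.26), while H2-Aa was at 2790 against 3474 (−0.32, −0.47 to −0.16) and Cd74 at 9981 against 10028 (−0.01, −0.09 to 0.08). Without the keratin-rich barcodes the log2 ratios of H2-Aa and Cd74 were −0.88 and −0.58. The galectin gene Lgals3 was at 346 against 1748 CPM (−2.33, −2.75 to −1.94), in 11 of 25 and 32 of 48 cells. Among single macrophage genes, the metalloprotease gene Mmp12 was at 1 against 205 UMIs (−6.52, −11.83 to −4.02) and the lipid receptor gene Trem2 at 1 against 51 (−4.51, −9.84 to −1.97). Arg1 stood higher at 24 against 0 UMIs, 91.7% of them in 1 barcode. Of 6 interferon-response genes, 3 were higher and none lower, with a median of 1.21, or 2 of 5 with a median of 0.31 without the keratin-rich barcodes. Ifi27l2a was at 1264 against 342 CPM (1.88, 1.56 to 2.22), in 17 of 25 and 15 of 48 cells, and Bst2, the tetherin gene, at 267 against 43.5 (2.62, 1.77 to 3.55). Ifitm3 went the other way over all leukocytes (−0.37, −0.68 to −0.08), but was at 0.31 without the keratin-rich barcodes.

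Of 7 type 17 and gamma delta T cell genes, 1 was higher and 2 were lower in the same comparison. Cd3g, a chain of the T cell receptor complex, had 26 UMIs against 93 (−0.68, −1.36 to −0.04). Among the single genes that stood highest, Stat4, a transcription factor of T helper cells, was at 182 against 21.7 CPM (3.07, 1.91 to 4.40), the survival gene Bcl2 at 255 against 35.3 (2.85, 1.93 to 3.87) and the T cell gene Ms4a4b at 195 against 21.7 (3.16, 2.01 to 4.49). Of 13 cell cycle genes, 12 were higher and none lower, with a median of 2.29. Without the deepest barcode of each library that median was −0.92, since the B cell-like barcode of 49673 UMIs supplied 67 of 67 Mki67 UMIs of its library. NF-kB target genes were lower in 3 of 15 and higher in none, and lower in 7 of 15 without the keratin-rich barcodes. Of 10 chemokines 3 were higher and none lower, against 2 higher and 4 lower without those barcodes.

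In metformin against healthy leukocytes, most NF-kB target, interferon-response and chemokine receptor genes compared stood higher, and single B cell genes stood lower. Of 17 NF-kB target and feedback genes, 12 were past 2-fold higher and none lower, with a median log2 ratio of 1.13. Ptgs2, the inducible cyclooxygenase, was at 305 against 18.8 CPM (4.02, 2.62 to 5.92), in 11 of 30 and 3 of 21 cells, and the stress gene Gadd45b at 694 against 188 (1.88, 1.40 to 2.40). All 5 interferon-response genes compared were higher, among them Ifi27l2a at 534 against 61.1 CPM (3.13, 2.32 to 4.06). Of 17 immediate-early genes, 9 were higher and none lower. Of 9 chemokine receptors, 6 were higher and none lower, with Ccr2 at 248 against 23.5 CPM (3.40, 2.13 to 5.05) and the fractalkine receptor Cx3cr1 at 103 against 9.41 (3.46, 1.51 to 6.55).

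Lectin receptors of myeloid cells followed. Clec4a3 was at 183 against 9.41 CPM (4.28, 2.38 to 7.36), in 14 of 30 and 2 of 21 cells. Clec4n, the fungal receptor Dectin-2, was found in 10 and 0 cells, 10.4-fold higher with the floor of 3 counts. Il1b was at 2819 against 1020 CPM (1.47, 1.25 to 1.68) and Cxcl2 at 4179 against 1058 (1.98, 1.78 to 2.19). H2-Eb1 was at 1616 against 367 (2.14, 1.80 to 2.50), and 4 of 9 class II genes were higher and 1 lower, or 7 and 1 without the keratin-rich barcodes. Cd79b was at 41.3 against 249 CPM (−2.59, −3.50 to −1.76) and Ms4a1 was also lower (−3.05). These values moved with the macrophage or monocyte-like counts of 12 in 30 and 3 in 21 leukocytes, and the B cell-like counts of 3 and 9, whose part was not tested. Of 9 neutrophil granule genes, 6 were lower and 1 higher, and Ngp came from 1 metformin and 2 healthy barcodes. Of 17 cell cycle genes, 7 were lower and none higher, and all 9 compared without the keratin-rich barcodes were lower.

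Genes of energy sensing were included because metformin is known to act on AMPK, a kinase that senses low cellular energy. Of 6 genes of AMPK and mTORC1 signalling in disease plus metformin against disease, 2 were past 2-fold higher and none lower, or 1 higher and 2 lower of the 4 compared without the keratin-rich barcodes. Of 7 in metformin against healthy 1 was higher and 1 lower. Of 12 glycolysis and hypoxia genes, none was higher and 1 was lower in disease plus metformin, or 2 lower of 11 without the keratin-rich barcodes, and none passed 2-fold in either direction with metformin alone. Of all genes, 28.7% and 22.3% were past 2-fold in the same 2 comparisons.

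**Figure D4:**
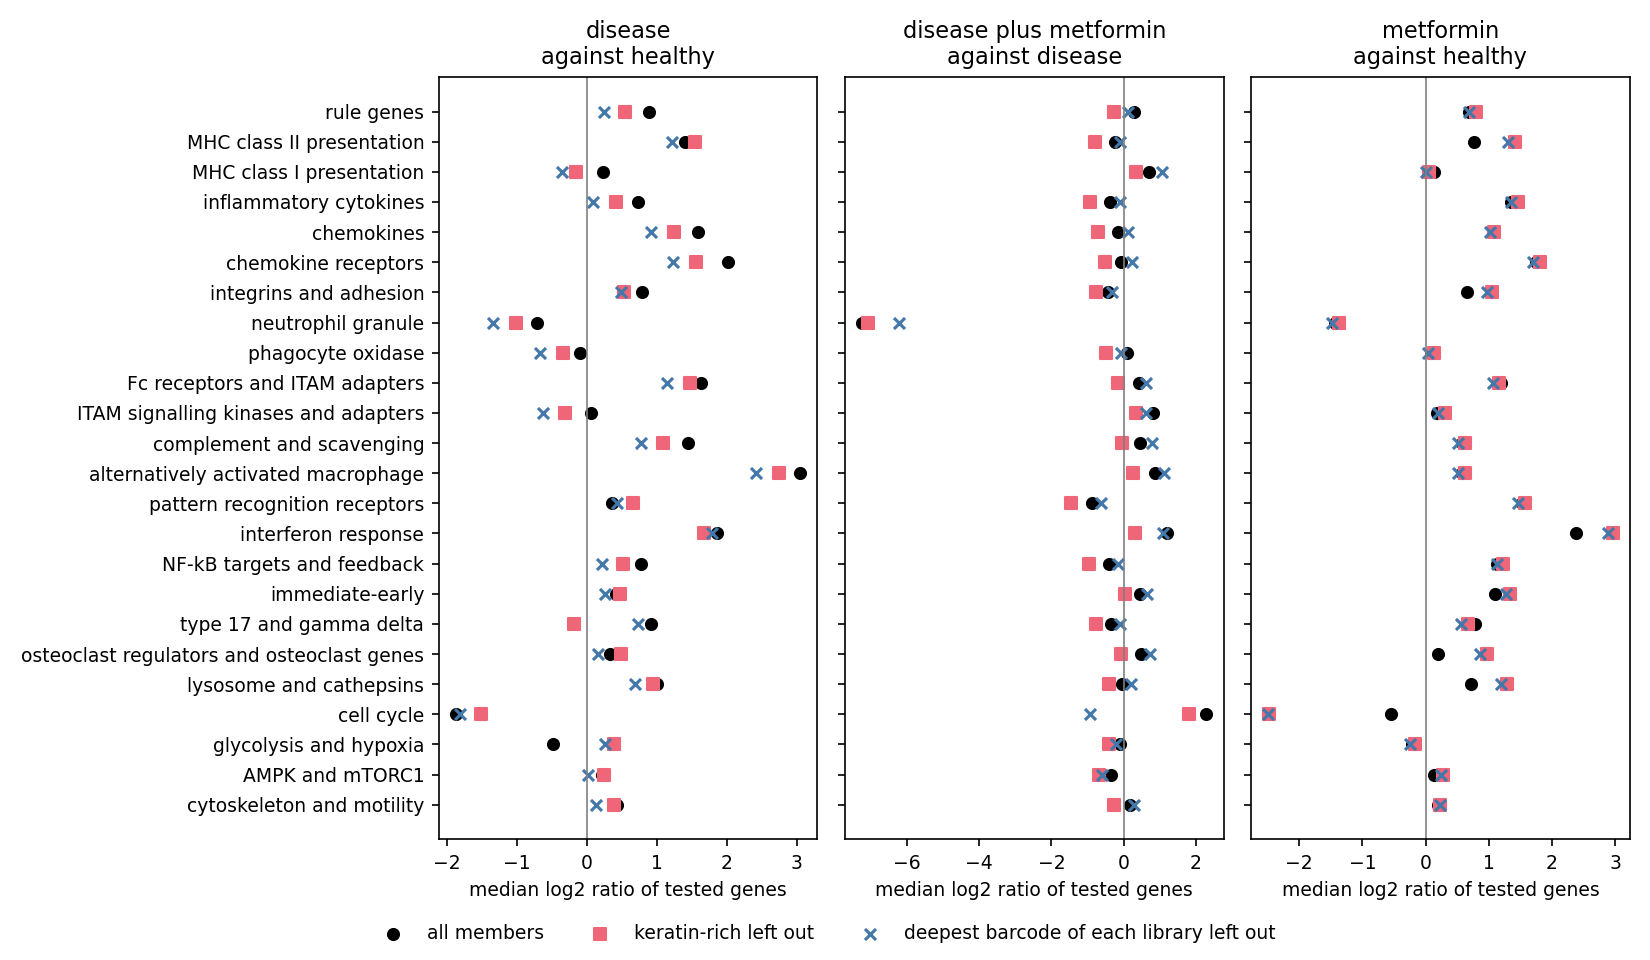
Median log2 ratio of the compared genes of each of 24 function lists in the 3 comparisons, for all leukocytes (black circles), without the 6 keratin-rich barcodes (red squares) and without the deepest barcode of each library (blue crosses). The neutrophil granule list stands apart in disease plus metformin against disease, at −7.23, and the cell cycle list there moves from 2.29 to −0.92 without the deepest barcode.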

How the data were processed

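The authors deposited raw UMI counts per gene and cell barcode for 4 libraries as 10x matrices, per the labels. The submitters' processing notes name bcl2fastq, Cell Ranger 7.0.1 and the mm10 build, and other settings are not given in the sources used here. Counts of 32285 genes were merged to 32245 symbols, and library totals were 12507787 to 22333858 UMIs. Here, leukocyte counts were summed per library, scaled to CPM and compared as log2 ratios with conditional exact binomial 95% intervals. A count of 0 was set to a floor of 3. These intervals and floors cover counting error only, and 1 library a group allowed no test. Simulated disease and healthy sums had only the counting error that the intervals assume, with no spread between cells. For 4079 genes simulated without a change, 96.7% of the intervals included the ratio they were made with. This checks the calculation and not how well the intervals hold for real leukocytes.

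Leukocytes, gene lists and comparisons were chosen with earlier results of these data known. Genes named were the 8 rule and 5 lineage genes, up to 4 per function list by interval bound, the 6 highest and 6 lowest genes with at least 30 UMIs and no barcode over 30% of them, and the 20 most selective leukocyte genes. Genes described within lineages or single barcodes, namely those of B cell development, T cell receptors and macrophage states, were chosen after their values were seen. Alternatives covered the member rule, denominator, depth, count minimum, fold, cell weights, scaling, lineage rule and single deep barcodes. Leaving out the keratin-rich barcodes and the minimum of 30 Cd74 UMIs were added after seeing the data. Promoters were searched on both strands with Python 3.11.15, numpy 2.4.6, scipy 1.17.1 and pandas 2.3.3.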

Additional observations from a re-analysis of the deposited data

Results flagged for a closer look

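The ratio of the metformin-treated to the matching untreated library pointed in opposite ways in disease and in health for 14 of the genes named as highest or lowest in a comparison. Both ratios were past 2-fold, kept their sign without the keratin-rich barcodes and had counting intervals clear of 0. Genes not named as highest or lowest also met these terms, for example Acod1 (log2 ratio −5.71 in disease, 3.34 in health) and Ablim1 (1.87, −2.04). The share of all compared genes that did so is not given here, so the 14 do not show how common it was. The difference between the 2 contexts was not tested, since each group was 1 library, and all 4 libraries enter it. Genes lower with metformin in disease but higher with metformin in health were Ccrl2 (log2 ratio −3.39 in disease, 1.75 in health), Clec4n (−2.93, 3.38), Furin (−1.54, 4.09), H2-Eb1 (−2.63, 2.14), Hcar2 (−4.47, 1.91), Il1rn (−5.73, 1.35), Lgals3 (−2.33, 1.36) and Ptgs2 (−2.30, 4.02). The disease plus metformin library held 0 neutrophil-like barcodes against 12 in disease, and metformin held 6 against 4 in healthy. Hcar2 is in the marker list that defined this class, so its ratios are no separate support.

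Genes higher with metformin in disease but lower in health were the B cell genes Cd79b (1.81, −2.59) and Ms4a1 (2.75, −3.05) and the cell cycle genes Hmgb2 (1.93, −1.68), Pclaf (4.35, −2.08) and Top2a (1.97, −2.21). Cd79a (2.13, −2.88) is also among the 14, but it is 1 of the 8 genes that chose the leukocytes, so its values are a description only. In the disease comparison 1 barcode held 90.1% of the Pclaf, 57.4% of the Hmgb2, 63.6% of the Top2a and 68.8% of the Ms4a1 UMIs of both libraries. Without the barcode richest in the gene, the Cd79b ratio in disease was 0.19. B cell-like barcodes numbered 9, 3, 5 and 5 in the healthy, metformin, disease and disease plus metformin libraries, and a single barcode of 49673 UMIs held 63 Top2a UMIs in the last.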

How the results depend on the processing

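The share ratios kept direction in all but 2 of 27 recalculations, but 3 repeat main values because the endothelial limit removed 0 barcodes. Counted per kept barcode outside the keratinocyte and gland rules they turned to −1.12 (disease to healthy) and 1.17 (disease plus metformin to disease), and with fewer than 3 keratinocyte and gland markers the latter was −2.55, from 6 and 36 leukocytes. The interval of disease to healthy reached 0 with at least 2 or 4 rule genes, at least 500 genes or at most 10% mitochondrial UMIs. Genes past 2-fold were 1001 of 4236 for disease to healthy. They were 1179 of 4114 for disease plus metformin to disease and 923 of 4147 for metformin to healthy. In the same order they became 1976 of 6810, 2127 of 6644 and 1892 of 6667 with at least 10 UMIs. With at least 50 UMIs they were 316 of 1671, 361 of 1634 and 284 of 1669. At 1.5-fold they were 1928, 2112 and 1842 of the same genes as in the main setting. Without the deepest barcodes disease plus metformin to disease gave 733 of 3315, and with equal cell weights metformin to healthy gave 1427 of 4147. With fewer than 3 epithelial markers these comparisons gave 493 of 1716 and 454 of 1285. The number of genes compared thus changed too, so a lower count is not by itself a lower share. Under equal cell weights, the higher genes were 48.7% in place of 59.3% of those past 2-fold for disease to healthy and 47.4% in place of 60.5% for disease plus metformin to disease. Lineage shares stayed within their intervals in all 108 recalculations, but these intervals are wide and classes at 0 under every rule are included. By the list with the most UMIs, B cell-like disease barcodes were 2 in place of 5. That rule also made 1 metformin, 1 disease and 1 disease plus metformin barcode plasma cell-like. With at least 2 markers and a lead of 1, dendritic or Langerhans-like disease barcodes were 5 in place of 2. Csf3r detection in disease plus metformin fell from 4.00% to 0 after thinning.

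The cell cycle median of disease plus metformin to disease turned to −0.92 without the deepest barcodes and −0.34 with fewer than 3 epithelial markers. Of 610 values for named genes, 18 turned round. Without the barcode richest in the gene, these were, for disease to healthy, Lcn2 0.29, Pycard 0.34, Ccl5 −0.78, Ccl4 0.094 and Pgam1 0.063. For disease plus metformin to disease they were Ube2c −0.19, Mki67 −1.32 and Ccl4 −0.23, and for metformin to healthy Cd36 0.80, Mmp12 1.11, Acp5 1.23, Ccl7 −2.01, Trdc −0.84 and Retnla −0.81. Without keratin-rich barcodes, disease to healthy turned to 0.039 for Ube2c, 0.54 for Pycard, −0.92 for Ltf and 0.49 for Pgam1. The cause was not tested. No paired analysis was possible because each group had 1 library and the result came from no test. Depth limits genes under 20 UMIs and classes of few barcodes.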

Other observations

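Unassigned leukocytes included antigen-presenting barcodes. In disease, 6 of the 8 unassigned barcodes held more than 100 Cd74 UMIs, at 158, 231, 257, 258, 404 and 440, and those with 404 and 257 also held 30 and 6 UMIs of Cd207. In disease plus metformin, 1 of 3 did, with 256 UMIs of Cd74 and 2 of H2-Eb1. Among all other kept barcodes, H2-Eb1 had 6, 62, 29 and 6 UMIs and Cd74 had 14, 56, 78 and 17 in the healthy, metformin, disease and disease plus metformin libraries.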
